A study of Mus musculus with 4 samples.

Results

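The genes of DNA replication were examined for Trim33 occupancy in T helper 17 (Th17) cells. The 38 members were taken by name: the subunits and loaders of the replicative helicase, the sliding clamp and its loader, polymerase subunits, the single-strand binding complex RPA, enzymes of Okazaki fragment joining and deoxynucleotide supply, Top2a and the proliferation marker gene Mki67. All 38 were found among the 21887 protein-coding genes of the mouse RefSeq table of build GRCm38 (mm10). They lie on 11 chromosomes and are 3206 to 76766 bp long, with a median of 16791 bp against 17169 bp for all genes. The series holds 2 Trim33 chromatin immunoprecipitation (ChIP-seq) libraries and 2 input DNA libraries. All came from naive CD4+ T cells of C57BL/6 spleen and lymph nodes, cultured on anti-CD3 and CD28 with IL-6, TGF-b and antibodies that block IL-4 and IFN-g. By the labels the groups differ only in being Trim33 ChIP or input DNA. No Trim33-deficient cells are among the 4 samples, and the labels do not say whether animals were pooled. One list of 27050 peaks, made from the merged replicates, was analysed, so a peak has 1 value, the depth of each library is unknown, and no value below has an error between cultures. For the same reason no test between conditions was possible, and peaks cannot show whether the cells carried Th17 markers.

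Replication starts at origins marked by the origin recognition complex (ORC). Cdc6 and Cdt1 load the MCM helicase onto them in G1, a step called licensing, and Cdc45, the GINS complex and Mcm10 turn the helicase on in S phase. Many of these genes are transcribed together as cells enter the cycle, under E2F factors held in check by RB proteins, and activated T cells pass through several such cycles while they differentiate. Trim33 is a chromatin reader and ubiquitin ligase that works with SMAD proteins of the TGF-beta pathway.

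Summits lay at the starts of a majority of these genes. The median fold enrichment there was 5.19, against 5.77 for the start-site peaks of all genes. A summit is the highest point of a peak. Where it lay no more than 1000 bp from the first or last base of the annotated gene it was counted as a gene-end summit, and 20 of the 38 members (52.6%) had one, against 33.4% of all protein-coding genes. Gene body plus 10 kb of either flank are called the locus here, and 27 of 38 members (71.1%) held a summit in it, against 53.9% of all genes. With gene bodies alone the shares were close, at 12 of 38 members (31.6%) and 33.0% of all genes. The RefSeq promoter table gives the transcription start of 32 members. Of these, 20 (62.5%) had a summit within 1000 bp of a listed start, against 34.8% of the 17492 genes listed. With both definitions together, 24 members (63.2%) were occupied at an end or a start, against 36.2% of all genes. A further 3 (Cdc6, Mcm3 and Mcm6) had summits elsewhere in the locus, and 11 had none. The latter were Orc6, Mcm5, Mcm10, Cdc45, Gins2, Rfc2, Rfc5, Pola2, Rpa2, Fen1 and Top2a.

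The bases just before the start are shown for 6 members, from the RefSeq promoter table of build GRCm38.p6, each 200 bases long and ending at the base before the start. Orc5 had the highest peak at a start, Gins3 the next highest, and Rfc3 a low one. Mcm5, Mcm6 and Top2a had no summit at the start. Capitals mark the words TTTCCCGC, TTTCGCGC, TTTGCCGC and TTTGGCGC on either strand, which are common forms of the E2F site, except in Top2a, where they mark the CCAAT box on either strand. Orc5 lies at chr5:22550339-22550538 (minus strand), Gins3 at chr8:95633359-95633558 (plus), Rfc3 at chr5:151651209-151651408 (minus), Mcm5 at chr8:75109309-75109508 (plus), Mcm6 at chr1:128359706-128359905 (minus) and Top2a at chr11:99024190-99024389 (minus).
Orc5: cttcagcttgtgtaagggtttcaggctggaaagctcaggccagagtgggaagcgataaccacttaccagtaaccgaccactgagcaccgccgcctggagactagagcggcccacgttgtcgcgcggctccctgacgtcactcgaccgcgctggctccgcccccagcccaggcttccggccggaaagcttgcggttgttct
Gins3: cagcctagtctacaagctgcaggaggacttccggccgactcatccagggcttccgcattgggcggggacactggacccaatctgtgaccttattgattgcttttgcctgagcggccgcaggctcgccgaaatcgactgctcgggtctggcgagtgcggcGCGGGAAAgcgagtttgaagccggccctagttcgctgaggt
Rfc3: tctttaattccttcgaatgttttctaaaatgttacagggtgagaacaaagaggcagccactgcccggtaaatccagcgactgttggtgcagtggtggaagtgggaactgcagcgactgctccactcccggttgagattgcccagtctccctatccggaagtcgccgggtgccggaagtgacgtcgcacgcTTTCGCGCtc
Mcm5: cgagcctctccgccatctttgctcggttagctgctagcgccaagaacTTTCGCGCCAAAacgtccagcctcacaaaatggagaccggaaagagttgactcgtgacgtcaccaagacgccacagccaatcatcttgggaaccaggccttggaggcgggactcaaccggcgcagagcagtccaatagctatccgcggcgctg
Mcm6: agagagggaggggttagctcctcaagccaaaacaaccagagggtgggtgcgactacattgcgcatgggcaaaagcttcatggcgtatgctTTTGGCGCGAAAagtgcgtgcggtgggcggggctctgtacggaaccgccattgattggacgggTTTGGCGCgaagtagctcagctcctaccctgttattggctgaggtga
Top2a: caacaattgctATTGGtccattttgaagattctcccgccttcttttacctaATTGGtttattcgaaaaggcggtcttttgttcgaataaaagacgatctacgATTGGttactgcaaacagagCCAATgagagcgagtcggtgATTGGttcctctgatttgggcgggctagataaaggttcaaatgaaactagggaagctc

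Among the 6 genes of the origin recognition complex, 3 had a gene-end summit, where the share over all genes was 33.4%. At a listed start 5 of 6 had one, where the share over all genes was 34.8%. Those of Orc1, Orc3 and Orc4 also lay at an end of a neighbouring gene. Orc5, an ATP-binding subunit, had 11.3-fold enrichment at chr5:22550265-22550500, with the summit 35 bp before the start. The fold is the authors' ratio of the signal at the summit to its background, and this peak ranked 1900 of the 27050 peaks. Orc4 had an 8.71-fold peak at chr2:48949128-48949614, 110 bp before a start. Orc1, the largest subunit, had 5.51-fold enrichment 126 bp before its start. Orc2 had 4.48-fold enrichment 135 bp after the start and Orc3 4.33-fold 25 bp after it. In Orc1 and Orc3 further summits lay inside the gene, of 5.38-fold in Orc1 and of 4.77-fold and 7.22-fold in Orc3. The remaining summit of Orc1, of 8.16-fold, lay 41 bp from an end of its neighbour Cc2d1b. Orc6, a loosely attached subunit, had no summit within 10 kb.

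The loaders differed from each other. Cdt1, which brings MCM rings to the origin, had a pair of peaks before its start, of 5.19-fold at 35 bp and 3.84-fold at 525 bp. Cdc6, the ATPase that acts with it, had no summit at an end and 1 of 6.59-fold at 9372 bp beyond the 3′ end.

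Among the 6 genes of the MCM ring, 3 had a gene-end summit, where the share over all genes was 33.4%. Of the 5 with a listed start, 2 had a summit there, where the share over all genes was 34.8%. Mcm4 had 6.43-fold and 4.65-fold peaks at 98 and 448 bp outside its upper end, both also within 1000 bp of an end of Prkdc. Mcm7 had 6.19-fold enrichment 131 bp after a start and 976 bp inside the upper end of the gene, the summit closest to the limit of the window. Mcm2 had 3.72-fold enrichment 60 bp after its start, a peak that ranked 25460. Mcm5 had none in its locus, and Mcm6 had only a 3.21-fold summit 9183 bp before the gene.

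Mcm3 shares an intergenic interval with a signature gene of these cells. Its 3′ end on chromosome 1 is separated by 17691 bp from the upper end of Il17f, which encodes the cytokine IL-17F. A summit of 4.55-fold lay at 20801882 in this interval, 1084 bp below the 3′ end of Mcm3 and thus just outside the gene-end window, and 16608 bp from Il17f. The other summit of Mcm3 had 4.31-fold enrichment and lay 4884 bp before the start. No summit was found at the start itself.

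Of the 6 genes that turn the helicase on, 3 had a gene-end summit, where the share over all genes was 33.4%. Only 3 of the 6 have a listed start, and 1 had a summit there, where the share over all genes was 34.8%. The 3 with a gene-end summit encode subunits of GINS. Gins3 reached 9.42-fold at chr8:95633343-95633570, with the summit 116 bp before the start. Gins4 reached 9.15-fold at chr8:23237657-23237994, 155 bp outside its upper end, and Gins1 6.85-fold at 227 bp inside its lower end. The fourth subunit gene, Gins2, had no summit in its locus. Neither had Cdc45, the partner of GINS on the helicase, nor Mcm10.

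Genes of the clamp and its loader carried low peaks. Pcna, the sliding clamp that holds polymerases on DNA, had 3.71-fold enrichment 416 bp after its start. For the loader subunits, Rfc1 had 3.71-fold at 44 bp, Rfc3 3.43-fold at 73 bp and Rfc4 2.33-fold at 36 bp, all before the start. The Rfc4 peak ranked 27034 of 27050, and no gene-end peak of any gene was lower. Rfc2 and Rfc5 had no summit in their loci. All 4 occupied starts of this group lay under the median of all peaks, which was 6.00-fold. A 9.95-fold peak in the Rfc4 locus lay 70 bp from an end of Eif4a2, a neighbour, and an 8.23-fold peak 9822 bp before Pcna lay within 1000 bp of a start of its neighbour Cds2.

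The occupied polymerase and single-strand binding genes had 4.31-fold to 8.27-fold enrichment at an end or start. Pole, the catalytic subunit of the leading-strand polymerase, had 6.15-fold enrichment 89 bp outside its lower end and a further summit of 8.75-fold 1614 bp outside it. Pold1, the catalytic subunit of the lagging-strand polymerase, had 8.27-fold enrichment 165 bp before its start. Of the RPA genes, Rpa3 had 6.66-fold at 209 bp and Rpa1 4.31-fold at 111 bp before the start. Rpa2 and the primase-polymerase subunit gene Pola2 had no summit in their loci.

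The highest peak in any of these loci lay inside a gene and not at its start. Lig1, the ligase that seals Okazaki fragments, had 12.4-fold enrichment at chr7:13302832-13303154, which ranked 1295 and lay 8467 bp inside the 3′ end. It also had 9.13-fold at 58 bp before a start and 7.73-fold farther inside. Fen1, the nuclease that trims these fragments, had no summit in its locus. Both ribonucleotide reductase genes, which supply deoxynucleotides, had a gene-end summit, where the share over all genes was 33.4%. Rrm1 had 7.07-fold enrichment 67 bp after its start. Rrm2 had 3 summits within the gene, of 7.86, 5.18 and 5.14-fold at 444, 1338 and 2041 bp after its start. Mki67 had a 3.43-fold peak 297 bp before the start and Top2a, which untangles replicated DNA, had none.

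**Figure D1:**
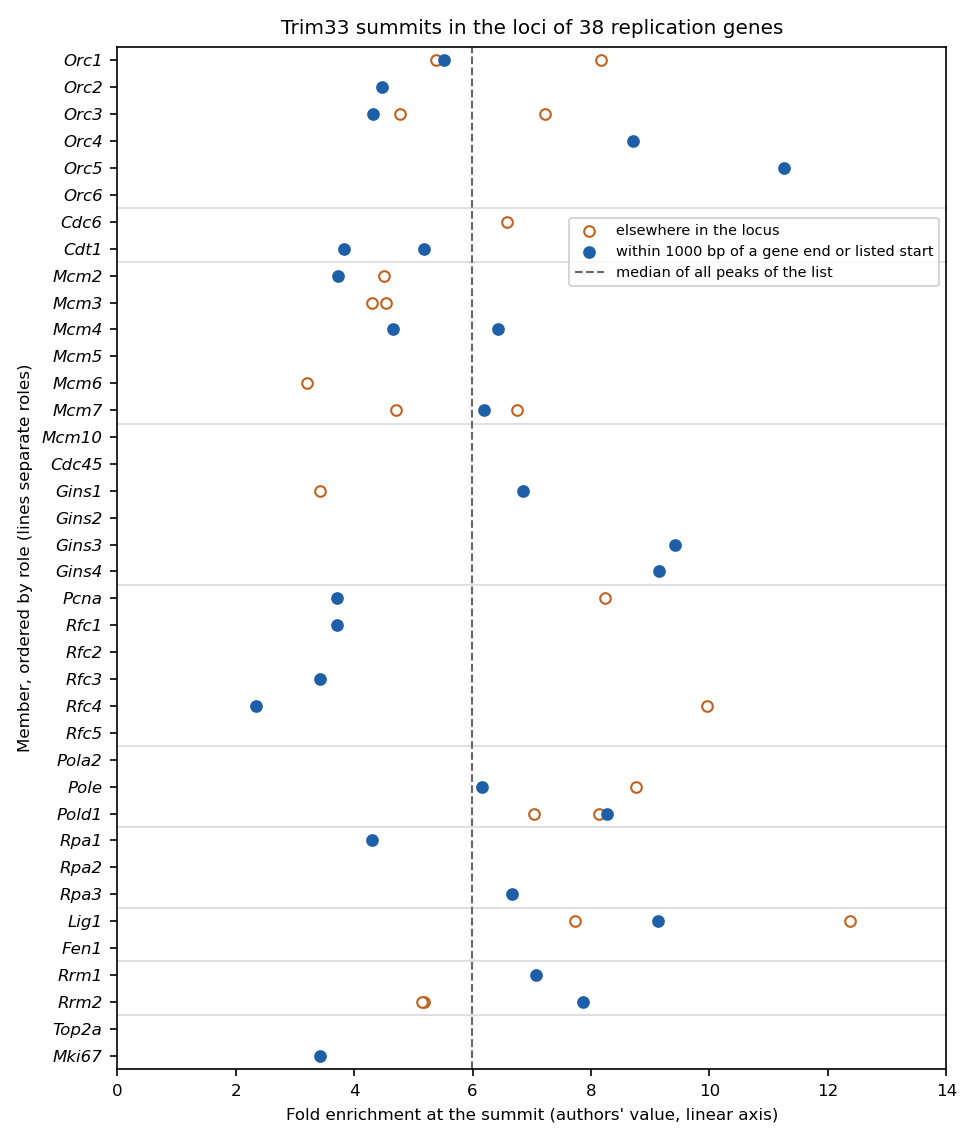
Fold enrichment (x axis, linear) of each of the 47 summits in the loci of the 38 members (y axis, grouped by role). Filled points are summits within 1000 bp of a gene end or listed start, open points lie elsewhere in the locus, and the dashed line is the median of all peaks, 6.00-fold. The clamp and clamp loader genes have their filled points at 2.33 to 3.71-fold, and Orc5 has the highest filled point at 11.3-fold.

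Heights at these genes were set beside those at all genes. The 22 gene-end peaks of the members had a median of 5.67-fold (quartiles 3.95 and 7.02), against 5.79-fold (4.69 and 7.51) for all 7497 gene-end peaks. Of the 22, 1 (4.55%) reached 10-fold, against 8.88% of all gene-end peaks. The 21 start-site peaks of the members had a median of 5.19-fold (quartiles 3.72 and 7.86), against 5.77-fold (4.65 and 7.44) for all 6557. Counting ends and starts together, 13 of 26 peaks were under the median of the whole list. Over all genes, 4008 of 7497 gene-end peaks and 3558 of 6557 start-site peaks were under it. In all, 47 summits lay in the 38 loci. Of the 21 that were at neither an end nor a start of the member, 14, in 10 loci, were farther than 1000 bp from the ends of every protein-coding gene. Such summits are called distal, also where a listed start lies within 1000 bp. Among the 14, the 8.23-fold summit 9822 bp before Pcna lay within 1000 bp of a listed start of Cds2. Over all summits of the loci, distal ones were found in 11 of 38 (28.9%), against 31.4% of all genes. The eleventh is Rfc1, whose only summit is far from the gene ends but 44 bp from a listed start. No member had more than 3 summits, and 6 had 3 (15.8%, against 15.9% of genes with 3 or more).

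The gene-end summits lay on the start side, and over all genes starts were also occupied more often than 3′ ends. Of the 20 members with one, 16 have a listed strand, and in all 16 it was at the start side of the gene. None of the 32 members with a strand had a summit within 1000 bp of the 3′ end. Over all genes the share was 2.96% there and 34.8% at listed starts. At the 20 members with a start-site summit, the nearest summit was a median of 111 bp from the start against 74 bp over all such genes. It lay before the start in 13 of 20 (65.0%, against 66.9%), and within 250 bp in 17 of 20 (85.0%, against 84.5%). The summits of Pcna and Rrm2 lay farthest after the start, at 416 and 444 bp.

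**Figure D2:**
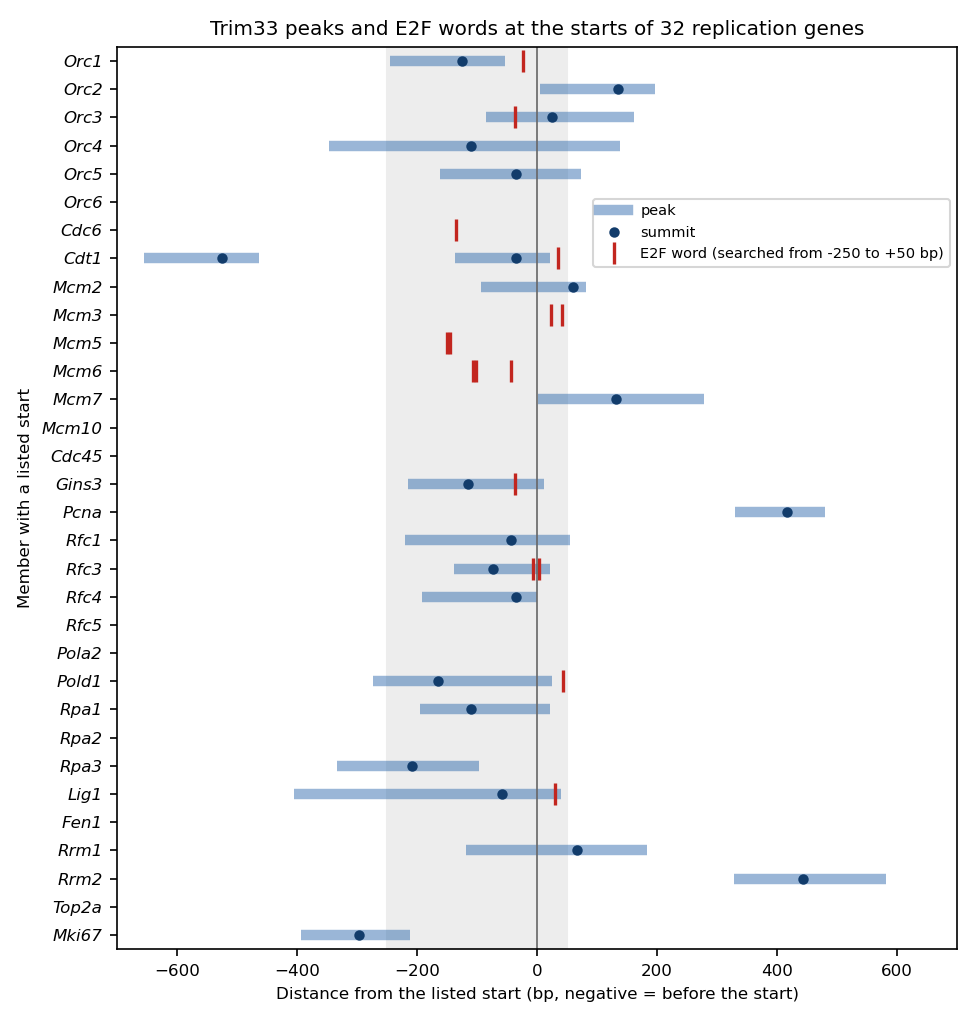
Trim33 peaks (bars), their summits (points) and E2F words (red ticks) by distance in bp from the listed start (x axis) for the 32 members with one (y axis); for a gene with several starts the one nearest to a summit is drawn, so 2 words at the other start of Mcm7 are not shown. The grey band is the window searched for E2F words, and most peaks lie within or beside it, while those of Pcna and Rrm2 lie to the right of it.

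The gene-end definition missed occupied starts of 4 members. Orc1, Orc4, Rfc1 and Lig1 have listed starts that lie inside the outermost ends of the annotated gene, by 3749 bp in Orc1. Their summits lay 44 to 126 bp from such a start. Several of the occupied starts were shared. In 11 of the 24 members with a summit at an end or a start, the summit also lay within 1000 bp of an end or start of another protein-coding gene, so it cannot be assigned to either gene. These pairs were Orc1 with Prpf38a, Orc3 with Rars2, Orc4 with Mbd5, Mcm4 with Prkdc, Mcm7 with Ap4m1, Pcna with Cds2, Pole with Pxmp2, Pold1 with Nr1h2, Rpa1 with Smyd4, Rpa3 with Umad1 and Lig1 with Zswim9. For gene-end summits alone the count was 8 of 20 members (40.0%), against 28.0% over all genes. The other 13 members, among them Orc5, Gins3, Gins4, Rrm1 and Rrm2, had the summit to themselves.

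The share of occupied starts was then set beside the base composition of the promoters. The promoter window has 300 bases, 250 of them before the start, and its CpG ratio is the observed number of CG pairs over that expected from its C and G. The 39 windows of the 32 members had a median CpG ratio of 0.845, against 0.567 for all windows, and a median GC content of 61.3%, against 56.3%. Over all genes, the share with a start-site summit was 4.81% at ratios under 0.4 and 73.6% at ratios of 1 or more. Among the 8896 genes with a ratio of 0.6 or more it was 59.3%, and among the 29 members in that range it was 19 of 29 (65.5%). By class, 6 of 8 members at 0.6 to 0.8 had one (75.0%, against 47.4% of all genes in the class). At 0.8 to 1 it was 10 of 16 (62.5%, against 64.1%), and at 1 or more 3 of 5 (60.0%, against 73.6%). The part of CpG content in the members' share was not tested.

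**Figure D3:**
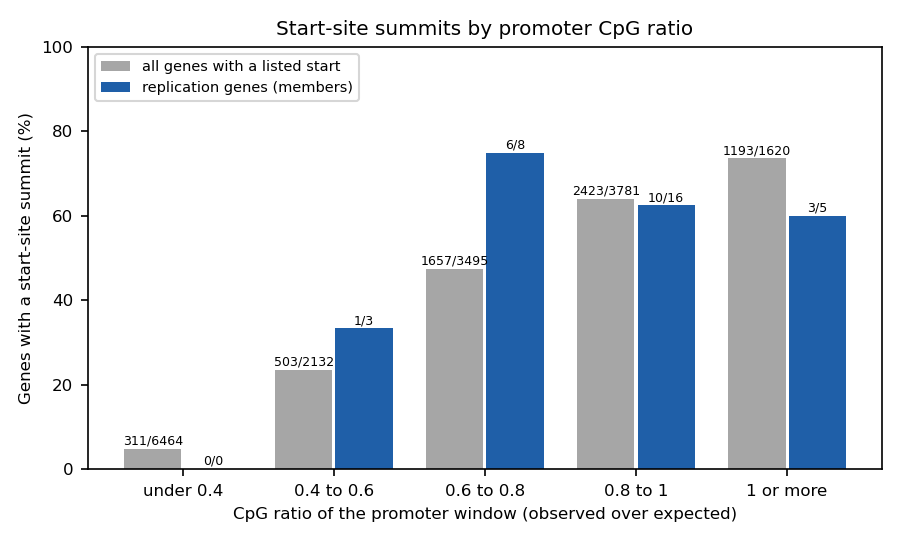
Share of genes with a start-site summit (y axis, percent) by the highest CpG ratio among their promoter windows (x axis), for all genes with a listed start (grey) and the members (blue), with counts above the bars. The grey bars climb from 4.81% to 73.6%; the blue bars rest on 3 to 16 genes each and none of the members is in the lowest class.

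The E2F word was common in these promoters, at starts with and without a summit. It was found in 12 of 39 member windows (30.8%), against 2.85% of all windows, and in 12 of the 32 genes. Of these 12 genes 8 had a start-site summit, and of the 20 without the word 12 had one. Mcm6 had 3 words in the window and Mcm5 and Mcm3 had 2 each, all without a summit at the start. Where 2 words overlap on opposite strands, as in the printed Mcm5 and Mcm6 windows, each was counted. In Gins3 the word began 41 bp before the start and lay inside the peak, and Rfc3 had a word at 10 bp before and another at the start itself, both inside the peak. Of the 10 words in windows of starts with a summit, 5 lay inside a peak. Over all genes, 309 of 575 with the word (53.7%) and 5778 of 16917 without it (34.2%) had a start-site summit. Among genes with a CpG ratio of 0.6 or more these shares were 60.04% and 59.2%, and for the members in that range the counts were 8 of 11 and 11 of 18.

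Other short words gave the following shares of windows. The CCAAT box was found in 61.5% of member windows, against 38.2% of all. Over all windows it was in 33.7% of those with a start-site summit and 40.5% of those without one. For the members these shares were 62.5% and 60.0%. Top2a had 6, of which 5 are in the printed stretch. The GC box GGGCGG was found in 71.8% (46.2%), the ETS word CCGGAAG in 30.8% (11.6%) and the core of the NRF1 site, GCATGCGC, in 10.3% (3.52%). Among all windows with a start-site summit these were in 71.3%, 22.0% and 6.08%. In the 24 member windows with such a summit they were in 87.5%, 37.5% and 8.33%. The word TTTGAA, the CHR element of genes expressed late in the cycle, was in 15.4% (16.0%). These were windows of Mcm2, Cdc45, Gins3, Fen1, Top2a and Mki67. The SMAD word CAGAC was in 41.03% (48.4%), and the SMAD palindrome GTCTAGAC and the AP-1 word TGACTCA were in none of the 39 (0.226% and 4.66% of all windows). Every word was searched on both strands, and a match does not show binding.

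Genes of the same pathway outside the 38 were counted in the same way. Of 40 further replication genes, 23 (57.5%) had a gene-end summit, against 33.4% of all genes, and 30 (75.0%) a locus summit, against 53.9%. At a listed start 17 of 33 had one (51.5%), against 34.8% of all genes and 62.5% of the members. The highest at an end or start was at Pold3, a subunit of the lagging-strand polymerase, with 11.7-fold at 97 bp from the start. It was followed by Dck (8.86-fold) and Dut (8.71-fold), both of nucleotide metabolism, and by the MCM-binding protein gene Mcmbp (8.75-fold). The loci of Pola1, Pole2, Pole3, Pold2, Cdc7, Gmnn, Ticrr, Clspn, Rnaseh2c and Chtf18 held none. The highest summits anywhere in these loci were of 16.04-fold at Rnaseh2b, a subunit of the nuclease that removes ribonucleotides from DNA, and of 15.2-fold at the chromatin assembly gene Chaf1a.

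Of 19 genes of E2F, RB and their complexes, 12 (63.2%) had a gene-end summit, against 33.4% of all genes, and 15 (78.9%) a locus summit, against 53.9%. Lin54, a DNA-binding subunit of the DREAM complex, reached 10.1-fold at 209 bp from its start. E2f3 had 9.28-fold enrichment at 70 bp and E2f2 9.19-fold at 659 bp from listed starts inside the gene, and E2f5 had 9.06-fold. The pocket protein genes Rbl1, Rb1 and Rbl2 had 8.43, 6.39 and 4.76-fold at an end or start. E2f1, Lin9, Lin37 and Lin52 had no summit in their loci.

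Housekeeping complexes chosen by symbol gave shares at gene ends above the 52.6% of the members. They were 64.6% for the genes of cytosolic ribosomal proteins (53 of 82), 64.6% for proteasome subunits (31 of 48) and 72.7% for mitochondrial ribosomal proteins (56 of 77). Differences between lists were not tested, since genes of 1 peak list are not replicates.

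**Figure D4:**
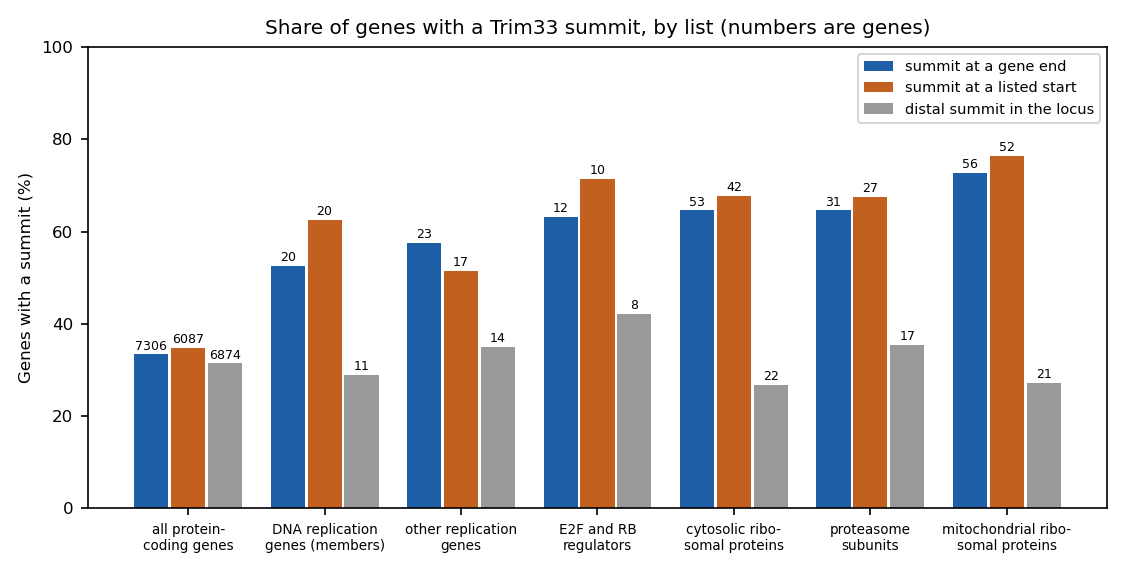
Share of genes (y axis, percent) with a summit at a gene end (blue), at a listed start (orange) and with a distal summit in the locus (grey) for all protein-coding genes, the 38 members and 5 other lists; numbers above the bars are genes. At gene ends the members' 52.6% is above the 33.4% of all genes and below the 57.5% to 72.7% of the other lists. At listed starts the members' 62.5% is above the 51.5% of the other replication genes and below the 67.5% to 76.5% of the remaining lists. Distal shares run from 26.8% to 42.1% with 31.4% over all genes.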

How the data were processed

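The deposited peak list was used as it stands. It comes from merged replicates. The submitters' processing notes name build mm10 and 3 programs: MACS2 (2.1.1.20160309), Bowtie (1.2.1.1) and Trim Galore (0.3.7). How they were set, and at which threshold peaks were kept, is not given in the sources used here. For every summit there is a fold enrichment, the authors' ratio of signal to background from the peak caller. The deposited −log10 q-value describes the same summit, and the deposited score is the whole part of 10 times that value in 100% of peaks. The lowest deposited −log10 q was 2.10.

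Summits were joined to the RefSeq gene and promoter tables (GRCm38.p6) with pandas 2.3.3, counted from 1. Counting was tested on planted summits. All members are accounted for, in the order of their roles, with full values where an end or start was occupied and names where the locus was empty. Members and lists were chosen with earlier results of these data known, and the CpG classes after the data were seen. The RefSeq promoter table gave no start for Mcm4, Gins1, Gins2, Gins4, Rfc2 and Pole, for which gene ends were used. Alternatives were other windows, loci, stricter peak sets, peak overlap in place of the summit and promoters with a CpG ratio of 0.6 or more. As background, all genes except those with Olfr, Vmn, Gm or Rik symbols were also used.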

Additional observations from a re-analysis of the deposited data

How the results depend on the processing

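Counts within 1.5 times the reported one were taken as unmoved, and 13 of 19 alternatives gave such values. This rule does not look at the background share. Among the 13 was a limit to promoters with a CpG ratio of 0.6 or more, added after the data were seen. It left 19 members with a start-site summit (65.5%, against 59.3% of all genes in that range). The reported shares were 62.5% and 34.8%. Limiting the list to peaks at or above the median fold left 11 members with a gene-end summit (17.2% of all genes) and 9 with a start-site summit (17.8%). Limiting it by −log10 q left 9 at gene ends (17.6%) and 17 in loci (35.8%). Gene bodies alone held a summit in 12 members (31.6%, against 33.0% of all genes). Distal summits were found in 11 (28.9%, against 31.4%). For both, the members' share was close to that of all genes. These sets are smaller by construction. Windows of 500 and 2500 bp gave 19 and 22 members at gene ends, and the median fold there was 5.19 with 2500 bp. Among genes with no Olfr, Vmn, Gm or Rik symbol, 38.1% had a gene-end summit and 60.8% a locus summit. Without a depth per library, low peaks such as that of Rfc4 cannot be checked, and an absent peak does not show absent binding. No paired analysis was possible because merging left no value for either replicate.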

Other observations

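The gene body of Mcm7 also holds the microRNA genes Mir25, Mir93 and Mir106b, which lie on the same strand on chromosome 5. The nearest Trim33 summit was 4248 bp from Mir25, 4450 bp from Mir93 and 4664 bp from Mir106b. It was not the one at the start of Mcm7 but the 4.71-fold summit 3510 bp below the gene, 29 bp from an end of Cops6, which encodes a subunit of the COP9 signalosome. The locus also held a 6.75-fold summit at 97 bp from an end of the zinc finger gene Zfp113. In Pold1, Mir7053 was 10457 bp from the nearest summit.

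The annotation used to place a start changed which genes counted. Over all genes, 615 had a summit within 1000 bp of a listed start but none within 1000 bp of the outermost gene ends, as Orc1, Orc4, Rfc1 and Lig1 did among the members. For E2F and RB regulators these were E2f2 and E2f3.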
